A study of Homo sapiens with 8 samples.

Results

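The AP-1 and BATF transcription factors are described here by the ChIP-seq peaks at the 10 genes that encode them: JUN, JUNB and JUND, FOS, FOSB, FOSL1 and FOSL2, and BATF, BATF2 and BATF3. A peak belonged to a gene when it overlapped the gene body or the 20 kb on either side (hg38). The rule is positional and used no measured value. All 10 genes were found among 19970 protein-coding genes, and their windows held 37 of 47193 peaks with ATRA+POM, 55 of 54279 with POM, 32 of 36742 with ATRA and 48 of 50946 with DMSO. Merged across libraries where they shared a base, these peaks formed 57 of 67328 regions.

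The cells were OPM-2, an established human multiple myeloma line. They were exposed for 72 h to 1 µM all-trans retinoic acid (ATRA) with 1 µM pomalidomide (POM), to 1 µM POM alone, to 1 µM ATRA alone, or to the solvent DMSO. ATRA is the ligand of the retinoic acid receptors, and POM is an immunomodulatory drug that redirects the cereblon ubiquitin ligase to the factors IKZF1 and IKZF3. Each treatment had 1 ChIP library and 1 input library, and the labels do not name the immunoprecipitated protein. Without replicates the treatments could be described and not tested, and all intervals cover counting error only. Treatment and library cannot be told apart. All of the 8 plasma cell marker genes examined had a peak within 1000 bp of a start in every list, while 1, 1, 0 and 0 of 7 markers of other cells had one with ATRA+POM, POM, ATRA and DMSO. The exceptions were COL1A1 with ATRA+POM and CD3E with POM. Of all protein-coding genes, 41.9%, 48.4%, 40.5% and 49.4% had such a peak in the same lists.

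The ATRA list stood apart from the rest. Its sequencing depth, inferred from the background values of the peaks, was 0.133 of that of DMSO, against 0.902 for ATRA+POM and 0.927 for POM. Of its regions genome-wide, 99.5% were also called with DMSO, and so were all 23 of its regions at the AP-1 and BATF loci. A region missing from that list may lie under its detection limit, so each summary below that involves it is given with the other lists beside it. Fold enrichment, the authors' ratio of a peak's summit to its local background, was not scaled between libraries.

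AP-1 is a dimer of basic leucine zipper proteins. JUN proteins pair with themselves or with FOS proteins, and the dimers bind the element TGANTCA, also called the TRE, in target genes, while JUN dimers with ATF proteins prefer TGACGTCA, the cAMP response element. JUN and FOS are immediate early genes, transcribed within minutes of a mitogenic or stress signal. BATF, BATF2 and BATF3 lack a transactivation domain, pair with JUN proteins and act at composite elements with IRF factors such as IRF4 and IRF8. IRF4 is a factor on which myeloma cells depend.

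The sequences before the start sites are shown for the 5 genes on which the results below turn. They are the 250 bases upstream of the RefSeq start (GRCh38.p14), written 5′ to 3′ on the strand of the gene, with TGANTCA, TGACGTCA and TGACATCA in capitals on either strand. JUN (chr1:58784048-58784297, minus strand) and BATF2 (chr11:64990278-64990527, minus strand) each hold TGACATCA, a variant of the cAMP response element that is known in the JUN promoter as a site of JUN and ATF2 binding. JUND (chr19:18281623-18281872, minus strand) holds TGACGTCA, and FOSB (chr19:45467746-45467995, plus strand) and BATF (chr14:75522219-75522468, plus strand) hold none of the 3. The listed start of BATF2 lies inside its annotated gene body, so its sequence comes from within the gene.
JUN: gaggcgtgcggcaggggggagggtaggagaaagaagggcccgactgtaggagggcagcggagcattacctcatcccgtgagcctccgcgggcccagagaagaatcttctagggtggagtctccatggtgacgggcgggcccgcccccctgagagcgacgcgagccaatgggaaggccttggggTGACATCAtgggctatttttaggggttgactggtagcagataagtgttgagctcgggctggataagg
JUND: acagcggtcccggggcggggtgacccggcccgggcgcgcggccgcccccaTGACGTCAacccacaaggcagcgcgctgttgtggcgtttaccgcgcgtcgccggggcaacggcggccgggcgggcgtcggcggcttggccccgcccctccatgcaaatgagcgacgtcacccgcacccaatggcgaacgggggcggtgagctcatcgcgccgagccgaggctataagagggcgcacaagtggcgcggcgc
FOSB: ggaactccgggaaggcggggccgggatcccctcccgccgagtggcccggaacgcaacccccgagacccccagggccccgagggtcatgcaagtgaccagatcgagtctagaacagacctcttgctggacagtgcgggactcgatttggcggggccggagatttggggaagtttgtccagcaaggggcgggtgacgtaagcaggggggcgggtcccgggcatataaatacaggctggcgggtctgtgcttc
BATF: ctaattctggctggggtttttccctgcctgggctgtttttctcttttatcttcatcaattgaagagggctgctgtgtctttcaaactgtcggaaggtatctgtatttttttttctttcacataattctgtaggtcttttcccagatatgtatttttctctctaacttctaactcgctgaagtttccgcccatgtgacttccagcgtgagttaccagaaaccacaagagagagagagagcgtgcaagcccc
BATF2: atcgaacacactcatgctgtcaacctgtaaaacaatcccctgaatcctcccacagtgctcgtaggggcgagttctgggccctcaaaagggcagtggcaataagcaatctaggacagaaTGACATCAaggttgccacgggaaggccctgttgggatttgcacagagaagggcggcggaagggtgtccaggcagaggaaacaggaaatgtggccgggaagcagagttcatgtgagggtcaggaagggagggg

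Across the 10 loci the mean number of peaks was 3.7 with ATRA+POM, 5.5 with POM, 3.2 with ATRA and 4.8 with DMSO. Over all protein-coding genes it was 2.80, 3.21, 2.46 and 3.09 in the same lists. The peaks covered 15327 bp with ATRA+POM, 31610 bp with POM, 15122 bp with ATRA and 34054 bp with DMSO. BATF3, which encodes a factor needed for cross-presenting dendritic cells in mice, had no peak in any list (chromosome 1, 212686417 to 212699840). The other 9 genes had at least 2 peaks in each list, except that BATF had 0 with ATRA. One list can split into several peaks what another calls as 1, so counts of merged regions are also given where they differ.

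**Figure D1:**
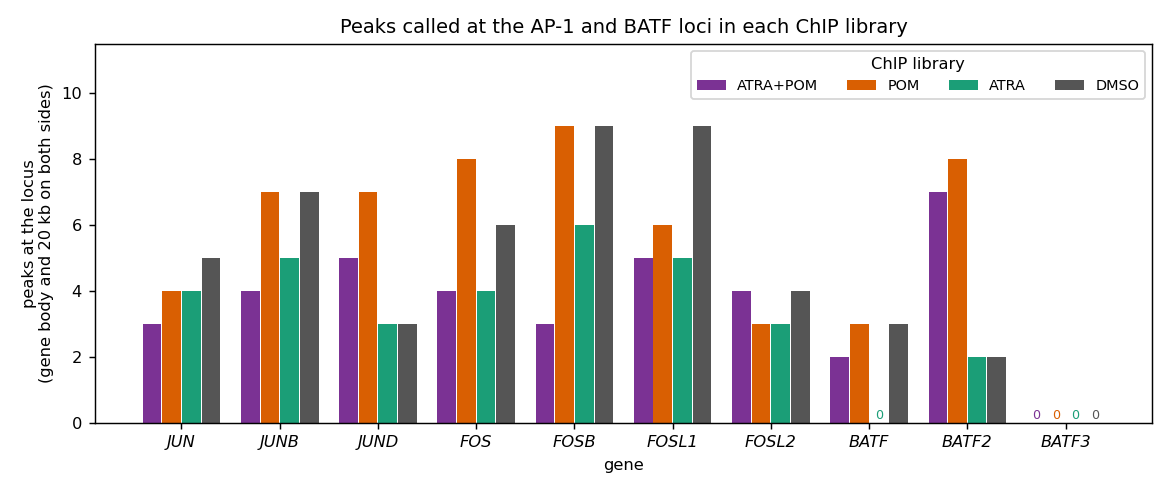
Number of peaks called at each locus, the gene body with 20 kb on both sides, in the ATRA+POM, POM, ATRA and DMSO ChIP libraries (1 library each, so no error bars). BATF2 had 7 and 8 peaks in the ATRA+POM and POM libraries and 2 in each of the ATRA and DMSO libraries, while FOSB had 3 with ATRA+POM and 9 with both POM and DMSO. The BATF2 counts include peaks at the start of the neighbour ARL2.

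A peak within 1000 bp of a start site was called at 8 of the 10 genes with ATRA+POM (41.9% of all genes), 9 with POM (48.4%), 6 with ATRA (40.5%) and 8 with DMSO (49.4%). For FOSL1 and BATF3, whose start is not in the table of start sites used, either annotated end was taken, and the FOSL1 peak lies at its lower end, over the CCDC85B start, so it is not shown to be at the start of FOSL1. Among the 8 genes with a listed start, 7, 8, 5 and 7 had such a peak with ATRA+POM, POM, ATRA and DMSO, against 44.5%, 51.1%, 43.2% and 52.2% of all genes with one. JUN, JUNB, JUND, FOS and FOSL2 had one in all 4 lists. The calls of FOSB, BATF and BATF2 differed between lists, and those of BATF3 were 0 throughout.

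**Figure D2:**
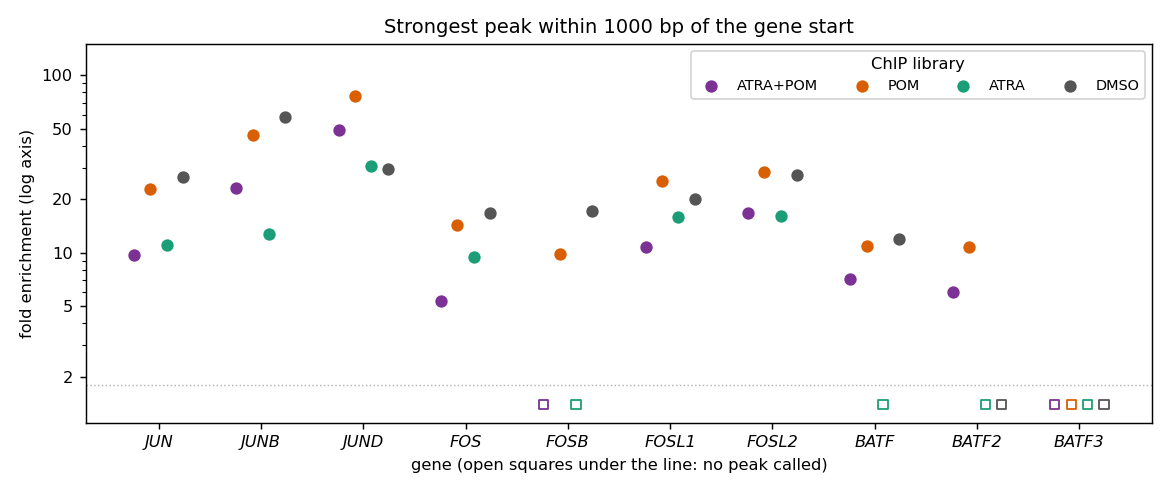
Fold enrichment (log axis) of the strongest peak within 1000 bp of the start of each gene in the ATRA+POM, POM, ATRA and DMSO libraries, with open squares where no peak was called. For FOSL1 and BATF3 either annotated end stands for the start. JUND had the highest values with ATRA+POM and POM, at 49.0 and 76.6, and BATF2 was called with ATRA+POM and POM and in neither of the other 2 lists.

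Of the genes for JUN proteins, JUN (chromosome 1, 58780791 to 58784047) held 3 ATRA+POM peaks, 4 POM peaks, 4 ATRA peaks and 5 DMSO peaks. JUN is the founding AP-1 subunit and can activate its own promoter. Its gene-body region next to the start (58782661 to 58784062) was enriched 4.64-fold (24 reads at the summit) in the ATRA+POM list, 22.8-fold (107 reads) in POM, 9.17-fold (14 reads) in ATRA and 26.7-fold (152 reads) in DMSO. On the upstream side (58784268 to 58785857), a region shared with the divergent RNA JUN-DT, the fold enrichment was 9.70, 18.5, 11.4 and 22.1 in the same lists. At both sides of the JUN start the ATRA+POM value was therefore the lowest of the 4. The log2 ratio of ATRA+POM over DMSO was −2.53 in the gene body, below the 5th percentile of −2.02 over all regions called in both lists, and −1.19 upstream, against a median of −0.56 over all regions. A further region in the gene body and 1 beyond its end were called with POM and DMSO and in neither of the other lists.

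JUNB (chromosome 19, 12791486 to 12793315), a JUN protein that can counter the activity of JUN, held 4 ATRA+POM peaks, 7 POM peaks, 5 ATRA peaks and 7 DMSO peaks. The region over its body (12791497 to 12794423), which also overlaps HOOK2, had a fold enrichment of 23.3 with ATRA+POM, 46.0 with POM, 31.6 with ATRA and 57.8 with DMSO. The region centred 2406 bp upstream had 35.2, 20.5, 24.8 and 43.8. These 2 neighbouring regions ranked the lists differently: with POM as the base, the log2 ratio of ATRA+POM was −0.98 over the body and 0.78 upstream. The upstream value exceeded the 95th percentile of 0.66 over all regions of that pair. The read counts upstream do not show the same order: ATRA+POM had 179 reads over a background of 4.11, and POM had 224 over 9.98. One region at the start of the neighbour PRDX2 and one at RNASEH2A were called in the POM and DMSO lists alone.

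JUND (chromosome 19, 18279694 to 18281622), the AP-1 subunit present in most resting cells, held 5 ATRA+POM peaks, 7 POM peaks, 3 ATRA peaks and 3 DMSO peaks. The region from 18281854 to 18283075, just upstream of its start, was enriched 49.0-fold (263 reads) in ATRA+POM, 76.6-fold (483 reads) in POM, 30.6-fold (61 reads) in ATRA and 28.6-fold (435 reads) in DMSO. The region over its body had 15.0 with ATRA+POM, 27.1 with POM, 24.8 with ATRA and 29.6 with DMSO. The upstream value exceeded the body value by the widest margin in the ATRA+POM and POM lists, while in DMSO the values on the 2 sides were close to each other. Upstream the log2 ratio over DMSO was 0.78 for ATRA+POM and 1.42 for POM, inside the 5th to 95th percentiles of all regions in both cases. The read counts do not show the same order, since DMSO had 435 reads over a larger background.

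A separate region centred 8451 bp upstream of JUND (18289707 to 18290439), between genes, was called in the ATRA+POM and POM lists alone. It was enriched 17.8-fold in ATRA+POM, with 122 reads (95% exact Poisson interval 101 to 146), and 37.0-fold in POM, with 282 reads (250 to 317). No ATRA or DMSO peak overlapped it. Within its own list this region ranked at percentile 76.4 with ATRA+POM and 86.0 with POM by −log10 q. Among the 12 regions at the 10 loci called in a POM-containing list and in neither ATRA nor DMSO it had the highest fold enrichment. A weaker region centred 9078 bp upstream was called with POM alone (fold enrichment 6.09, 24 reads).

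Of the genes for FOS proteins, FOS (chromosome 14, 75278828 to 75282230) held 4 ATRA+POM peaks, 8 POM peaks, 4 ATRA peaks and 6 DMSO peaks. FOS is the founding partner of JUN and cannot pair with itself. The region at its start had a fold enrichment of 5.34 with ATRA+POM, 14.3 with POM, 9.44 with ATRA and 16.6 with DMSO. The ATRA+POM value was the lowest, with a log2 ratio over DMSO of −1.64. Regions centred 18867 and 20151 bp upstream were called in all 4 lists, the nearer with a fold enrichment of 9.09, 12.3, 7.86 and 8.29 and the farther with 6.84, 19.7, 8.49 and 13.8 in ATRA+POM, POM, ATRA and DMSO. At the nearer one the ATRA+POM value was not below that of DMSO, and at the farther one it was the lowest of the 4.

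FOSB (chromosome 19, 45467996 to 45475179), a FOS protein known for a long-lived isoform in neurons, held 3 ATRA+POM peaks, 9 POM peaks, 6 ATRA peaks and 9 DMSO peaks. At its start, 0 peaks were called with ATRA+POM, 3 with POM (highest fold enrichment 9.85), 0 with ATRA and 2 with DMSO (17.2). The gene-body region centred 1755 bp past the start was called in all lists, so with start windows of 3000 bp FOSB had a start peak in each. This region was enriched 3.44-fold (49 reads) in ATRA+POM, 22.3-fold (93 reads) in POM, 11.4-fold (30 reads) in ATRA and 14.8-fold (204 reads) in DMSO. Its log2 ratio of ATRA+POM over POM was −2.70, the lowest of the 27 AP-1 and BATF regions called in both lists, against a 5th percentile of −1.84 over all. The local background was 13.5 with ATRA+POM and 3.22 with POM, so this ratio holds a difference in background as well as in reads. The strongest peak in the FOSB window lay over the selenocysteine tRNA gene TRU-TCA1-1, centred 10862 bp past the FOSB start, with a fold enrichment of 35.0, 76.6, 54.4 and 77.6 with ATRA+POM, POM, ATRA and DMSO. It belongs to the window by position and not to the FOSB promoter.

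FOSL1 (chromosome 11, 65892049 to 65900545), which encodes the FRA-1 protein, held 5 ATRA+POM peaks, 6 POM peaks, 5 ATRA peaks and 9 DMSO peaks. Of its 10 regions 7 lay within 1000 bp of the start of another coding gene and away from FOSL1 itself, and the region over its lower annotated end covers CCDC85B as well. That region had a fold enrichment of 10.8 with ATRA+POM, 25.3 with POM, 15.9 with ATRA and 20.1 with DMSO. Most values of this gene-dense window thus belong by position to neighbours of FOSL1.

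FOSL2 (chromosome 2, 28392858 to 28417317), which encodes FRA-2, held 4 ATRA+POM peaks, 3 POM peaks, 3 ATRA peaks and 4 DMSO peaks. Its main region, centred 373 bp upstream of the start, had a fold enrichment of 16.7 with ATRA+POM, 28.5 with POM, 16.2 with ATRA and 27.5 with DMSO. A region in the gene body, centred 11360 bp past the start (28404114 to 28404323), was called with ATRA+POM and in no other list. It was enriched 8.06-fold with 26 reads and ranked at percentile 27.7 of that list. It was the single region at the 10 loci called with ATRA+POM alone.

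BATF (chromosome 14, 75522469 to 75546992), which pairs with JUN proteins and IRF4 in B and T cells, held 2 ATRA+POM peaks, 3 POM peaks, 0 ATRA peaks and 3 DMSO peaks. At its start (75521966 to 75522657) the fold enrichment was 7.10 and the summit reads 57 with ATRA+POM, 10.9 and 90 with POM and 11.9 and 93 with DMSO. At the depth of the ATRA library the DMSO reads would come to 12.3, and the part of depth in the missing ATRA call was not tested. Another region, inside the gene and centred 20191 bp past the start (75542481 to 75542839), was enriched 4.34-fold (31 reads) in ATRA+POM and 10.2-fold (43 reads) in POM and was called in neither ATRA nor DMSO. It is the single region of the BATF gene outside its start.

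BATF2 (chromosome 11, 64987945 to 64996971), an interferon-induced member of the family, held 7 ATRA+POM peaks, 8 POM peaks, 2 ATRA peaks and 2 DMSO peaks. As merged regions the counts were 5, 7, 1 and 2 in the same lists. Both peaks of the ATRA and DMSO lists lay at the start of the neighbour ARL2 at the edge of the window. In the gene and its near flank, 5 regions were called with POM, of which 3 were also called with ATRA+POM, and none was called with ATRA or DMSO. The listed start (64990277, minus strand) lies inside the annotated gene, whose upper end is its 5′ end on that strand. Start peaks, upstream distances and the sequence shown for BATF2 refer to this listed start. Next to it (64990427 to 64990624, centred 248 bp upstream) the fold enrichment was 6.04 (58 reads) in ATRA+POM and 10.7 (48 reads) in POM. Another lay at the upper annotated end of the gene (64996557 to 64996962), with 5.83 and 28 reads with ATRA+POM and 5.36 and 34 reads with POM. These are modest peaks: the first ranked at percentile 41.7 and 44.5 of the ATRA+POM and POM lists by −log10 q. The larger region at the start of ARL2 had a fold enrichment of 7.01 with ATRA+POM, 13.6 with POM, 17.2 with ATRA and 35.6 with DMSO. The smaller one there (65013360 to 65013601) had 6.62, 6.49 and 7.26 in the ATRA+POM, POM and DMSO lists and was not called with ATRA. The larger one was split into 3 ATRA+POM, 2 POM and 2 ATRA peaks and was 1 DMSO peak. At a fold enrichment of at least 10 the window held 0, 3, 2 and 1 peaks with ATRA+POM, POM, ATRA and DMSO. With the stronger 50% of each list it held 0, 1, 1 and 1. In both settings ATRA+POM had fewer peaks than DMSO.

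**Figure D3:**
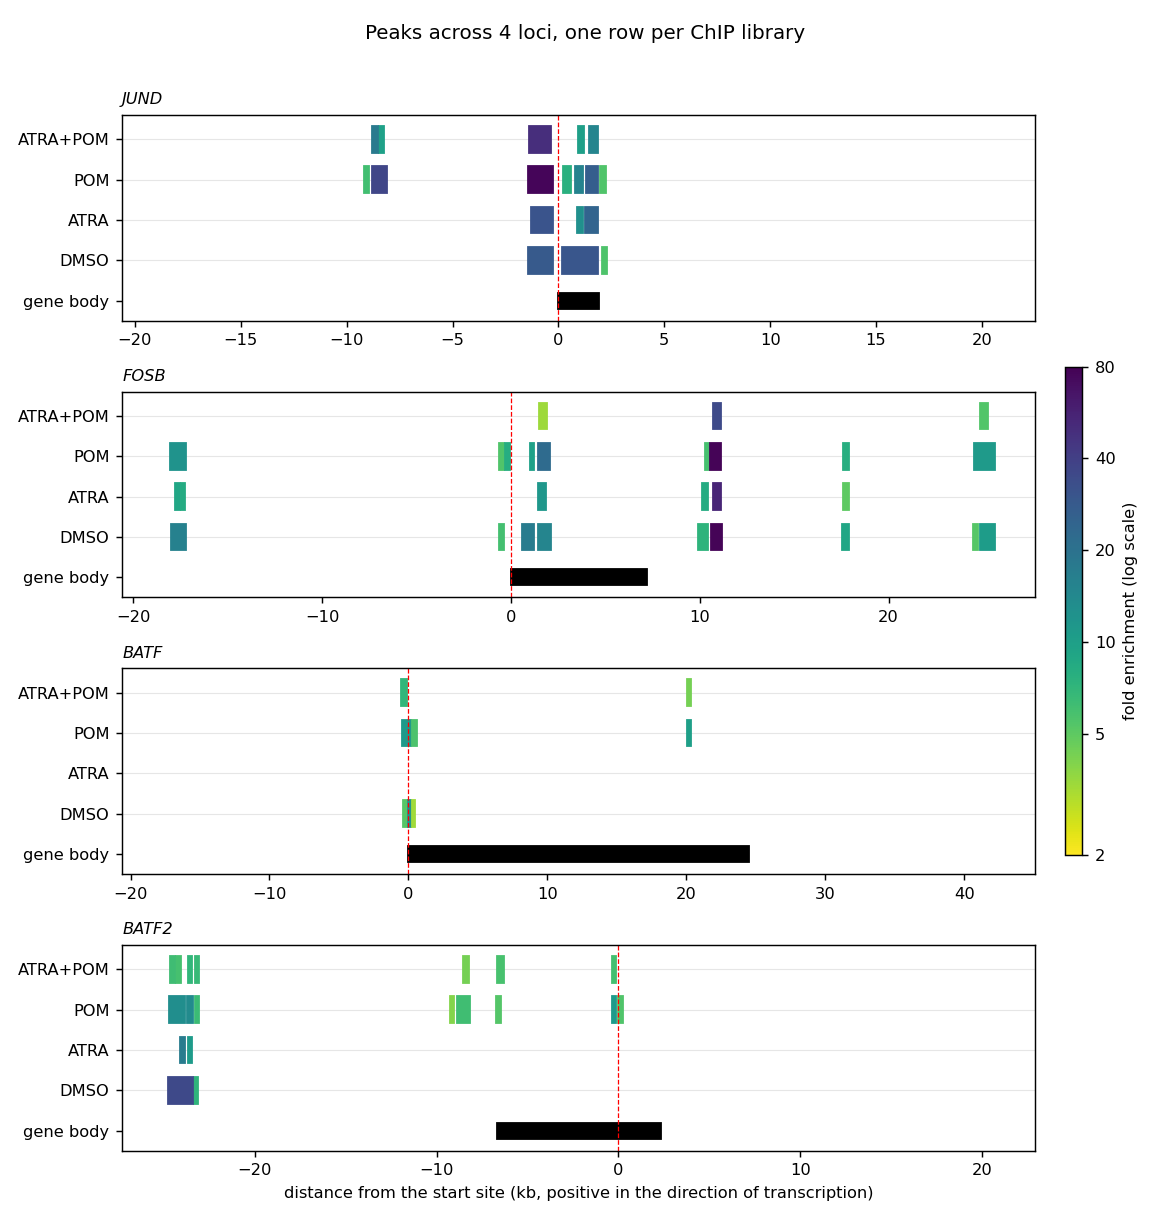
Peaks of the ATRA+POM, POM, ATRA and DMSO libraries across the windows of JUND, FOSB, BATF and BATF2, by distance from the start site in kb in the direction of transcription, coloured by fold enrichment on a log scale, with the gene body in black and the start as a dashed line. Narrow peaks are widened for display. The peaks 8451 bp before JUND, 20191 bp past the start of BATF and 248 bp before the listed start of BATF2 appear in the ATRA+POM and POM rows and in neither other row.

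With POM set against DMSO, 11 of 56 regions at the 10 loci were called with POM only (19.6%, 95% exact interval 10.2 to 32.4) and 7 with DMSO only (12.5%, 5.18 to 24.1). Over all regions of the genome the shares were 25.2% and 23.2%. More locus peaks were called with POM than with DMSO at JUND, FOS and BATF2, and fewer at JUN, FOSL1 and FOSL2. Of all genes, 29.0% had more and 26.1% fewer, many having no peak at all. Counted as merged regions, JUND, FOS, FOSB, BATF and BATF2 had more with POM (22.1% of all genes) and JUN, JUNB and FOSL1 fewer (27.5%). A peak at the listed start, which lies inside the gene, was called with POM and not DMSO at BATF2 (1.77% of all genes). The reverse was found at none of the 10 (2.74%). At the 38 regions called in both lists the log2 ratio of fold enrichment had a median of −0.12 and ran from −1.38 at ARL2 in the BATF2 window to 1.42 at JUND. Over 32829 regions the median was 0.08. When only the stronger 50% of each list was kept, 2 of 30 regions were called with POM only (6.67%) and 6 with DMSO only (20%), so the order of these counts turned round, and the median log2 ratio was 0.0101. With equal numbers of peaks the counts were 5 and 6. With sharing at 50% cover both were 11, but these include regions called in both lists with under 50% of a list's peak bases covered. The genome-wide shares were not computed in these settings.

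With ATRA+POM set against DMSO, 6 of 51 regions were called with ATRA+POM only (11.8%, 4.44 to 23.9) and 23 with DMSO only (45.1%, 31.1 to 59.7). The genome-wide shares were 17.4% and 37.1%. JUND and BATF2 had more peaks with ATRA+POM than with DMSO (24.0% of all genes), and JUN, JUNB, FOS, FOSB, FOSL1 and BATF had fewer (36.2%). As merged regions, BATF2 alone had more (10.6%), JUN, JUNB, FOS, FOSB and FOSL1 had fewer (45.6%), and JUND and BATF were equal. A start peak was called with ATRA+POM and not DMSO at the listed, internal start of BATF2 (0.761%) and with DMSO and not ATRA+POM at FOSB (8.21%). At the 22 shared regions the median log2 ratio was −0.97, with −0.56 over 26253 regions of the genome. JUND upstream of the start, at 0.78, was 1 of 5 that lay above that genome-wide median. At a fold enrichment of at least 10 the shares of regions became 3.57% and 67.9%, and start peaks with ATRA+POM were called at 4 members. The shares over all regions and genes were not computed at this cut. The median fold enrichment of all peaks was 7.99 with ATRA+POM and 8.88 with DMSO. The lower values over the whole ATRA+POM list and those at single genes cannot be told apart.

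ATRA+POM against POM asks what the retinoid added to the drug. One region of 50, that in the FOSL2 body, was called with ATRA+POM only (2%, 0.0506 to 10.6; 8.57% genome-wide) and 22 with POM only (44%, 30.0 to 58.7; 32.2% genome-wide). FOSL2 had more peaks with ATRA+POM than with POM (19.5% of all genes), and 8 others had fewer (36.5%). As merged regions FOSL2 was equal in the 2 lists, so no member had more (5.72%), and the 8 had fewer (43.2%). No member had a start peak with ATRA+POM and not POM (0.28%), and FOSB had one with POM and not ATRA+POM (6.76%). At a fold enrichment of at least 10 the shares of regions became 0% and 67.9%, and the genome-wide shares were not computed. The median fold enrichment of all peaks was 7.99 with ATRA+POM and 9.49 with POM. At the 27 shared regions the median log2 ratio was −0.93, against −0.66 over 31667 regions.

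**Figure D4:**
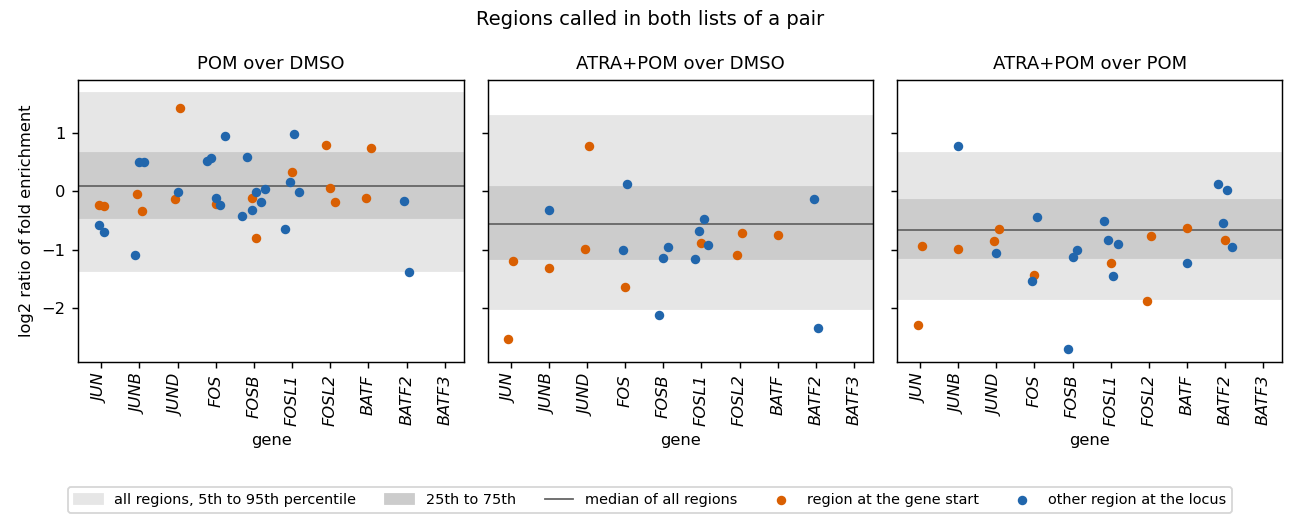
Log2 ratio of fold enrichment at each AP-1 and BATF region called in both lists of a pair, by gene, for POM over DMSO, ATRA+POM over DMSO and ATRA+POM over POM. Grey bands give the percentiles of all regions of the pair. Points at gene starts are orange, and for FOSL1 either annotated end stands for the start. JUND upstream of its start reaches 1.42 for POM over DMSO, while the JUN gene body is at −2.53 for ATRA+POM over DMSO.

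With ATRA set against DMSO, 0 of 45 regions were called with ATRA only (upper limit of the exact interval 7.87%; 0.241% genome-wide) and 22 with DMSO only (48.9%, 33.7 to 64.2; 47.2% genome-wide). No member had more peaks with ATRA (15.9% of all genes) and 7 had fewer (41.9%). As merged regions, 9 had fewer (54.7%) and none more (0.125%). FOSB and BATF had a start peak with DMSO and not with ATRA (8.91%), and none the reverse (0.025%). The median log2 ratio was −0.76 at 23 regions and −0.42 over 25095. The difference in depth moves with each of these values, and its part in them was not tested. With ATRA+POM set against ATRA, 10 of 33 regions were called with ATRA+POM only (30.3%, 15.6 to 48.7; 39.6% genome-wide) and 5 with ATRA only (15.2%, 5.11 to 31.9; 13.1% genome-wide). JUND, FOSL2, BATF and BATF2 had more peaks with ATRA+POM (31.7%) and JUN, JUNB and FOSB fewer (21.3%). As merged regions the same 4 had more (30.2%) and JUNB, FOSB and FOSL1 fewer (13.6%). BATF and BATF2 had a start peak in the ATRA+POM list that ATRA lacked (3.96%), with none the other way (2.52%), and the median log2 ratio was −0.50 at 18 regions and −0.25 over 19746. The pairs set against DMSO share that list, and those with ATRA+POM share theirs, so their values are not independent.

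**Figure D5:**
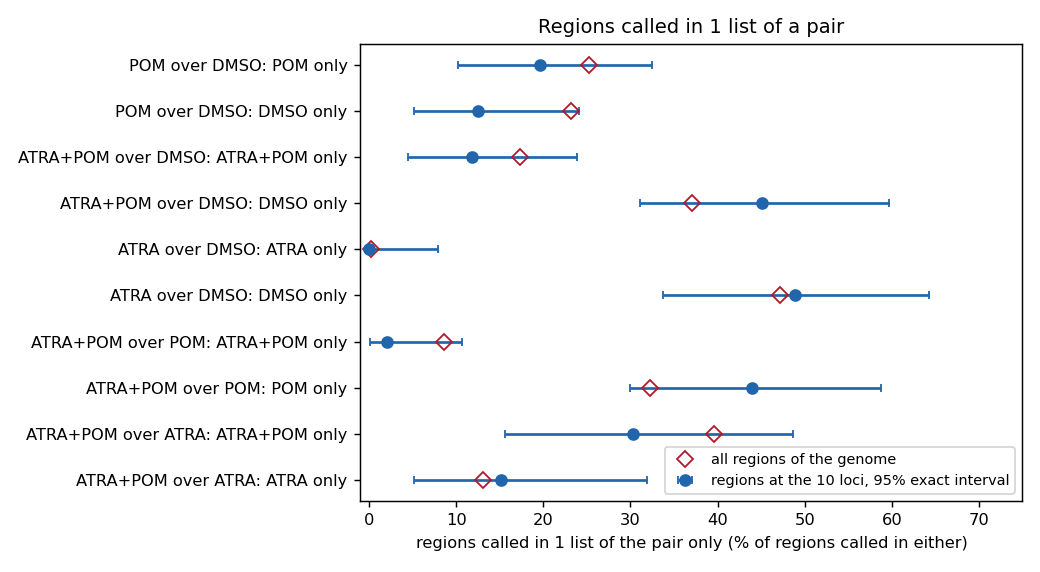
Share of regions called in 1 list only of each pair, as a percentage of the regions called in either, for the 10 loci (points, with 95% exact binomial intervals) and for all regions of the genome (open diamonds). Each genome-wide share lies inside the interval of the 10 loci.

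Sorted by the set of lists that called them, 18 of the 57 regions were found in all 4 (31.6%, 19.9 to 45.2; 28.8% of all regions). Called with POM and DMSO and missing from both lists with ATRA were 12 regions (21.1%, 11.4 to 33.9), against 7.49% of all regions. These lay at JUN, JUNB, FOS and FOSB, with 2 to 3 each, and at JUND, FOSL2 and BATF with 1 each. Without the ATRA list, 16 of 57 regions were called with POM and DMSO and not with ATRA+POM (28.1%, 17.0 to 41.5), against 11.4% of all regions. This count was 9 of 37 with windows of 5 kb and 8 of 30 with peaks within 500 bp merged. It was 13 of 30 with the stronger 50% of each list, 15 of 32 at a fold enrichment of at least 10 and 14 of 43 with equal numbers of peaks. The share over all regions was not computed in these settings. Regions of 1 locus share their chromatin and are not independent, so these intervals are too narrow. Called with ATRA+POM and POM alone were 5 regions (8.77%, 2.91 to 19.3; 9.60% of all), 3 at BATF2 and 1 each at JUND and BATF. This count was 2 with equal numbers of peaks and 1 both with the stronger 50% of each list and at a fold enrichment of at least 10. By place, 19 regions were at the start of a member, 6 elsewhere in a member's body, 14 at the start of another coding gene, 1 over the tRNA gene and 17 elsewhere in the windows. The 19 include the region at the lower end of FOSL1, over the CCDC85B start, which is not shown to be at the FOSL1 start.

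In each list the first base of most of these genes lay outside the peaks near it. The counts are small, the lists share the same genes and no interval was computed. Whether these genes differ from all genes in this was not tested. Of the 8 members with a listed start, the first base of the gene lay inside a peak for 0 of 7 with a start peak with ATRA+POM (28.6% of all genes with a start peak), 2 of 8 with POM (JUN and BATF; 47.9%), 0 of 5 with ATRA (28.7%) and 2 of 7 with DMSO (FOS and BATF; 57.8%). The summit of the strongest start peak of FOSL2 lay 448, 492, 464 and 486 bp upstream of the start with ATRA+POM, POM, ATRA and DMSO. For BATF2 it lay 237 bp upstream with ATRA+POM and 249 bp with POM. The element TGANTCA was found in 1 of the 8 promoters (from 250 bases before to 50 after the start), that of FOSL2, 4 bases past its start, and in 7.68% of 34961 promoters. TGACGTCA was found at JUND alone, 200 bases before the start (1.85% of promoters), and TGACATCA at JUN and BATF2, 67 and 132 bases before the start (2.61%). No peak of any list covered any of these 4 sites. GGGAA, the core of the Ikaros element, was in 5 of the 8 promoters (65.0% of all), GGTCA, a retinoid receptor half-site, in 3 (37.3%), and GGAAGT, an ETS core, in 3 (22.8%). The E-box CACGTG was in none (7.27%).

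The genes around AP-1 were read at their starts. Of all protein-coding genes, 41.9% had a start peak with ATRA+POM, 48.4% with POM, 40.5% with ATRA and 49.4% with DMSO. Of 12 ATF and CREB family partners 9 had a start peak in each list. Of 4 genes for IRF partners of BATF proteins, 3, 4, 3 and 3 had one with ATRA+POM, POM, ATRA and DMSO. The extra one was IRF8 with POM (fold enrichment 6.22), and 1.77% of all genes had one with POM and not DMSO. Of 14 kinases and ternary complex factors upstream of JUN and FOS, 11, 11, 10 and 13 had one. Those called with DMSO and not POM were 2 of the 14 (2.74% of all genes), and the same 2 were called with DMSO and not ATRA+POM (8.21%). MAP2K4, the kinase that activates JNK (7.28), and MAPK9, which encodes JNK2 (5.64), were called with DMSO and in no other list. MAPK14, which encodes the p38 alpha kinase, had a start peak with ATRA+POM (14.7) and DMSO (30.6) and none with ATRA. Called with DMSO and not ATRA were 3 of the 14 (8.91% of all genes), and with ATRA+POM and not ATRA 1 (3.96%). Of 14 other immediate early genes 8, 9, 10 and 11 had one. Called with DMSO were 2 that lacked a POM peak (2.74% of all genes) and 3 that lacked an ATRA+POM peak (8.21%). KLF2, a zinc finger factor of lymphocyte quiescence, had no start peak with ATRA+POM or POM but one with ATRA (6.10) and DMSO (32.2), and IER5 had one in all lists but ATRA+POM. Called with POM and not ATRA+POM was 1 of these 14 (6.76% of all genes), and with ATRA and not ATRA+POM 2 (2.52%). NR4A1 was called with DMSO (4.79) and in neither POM nor ATRA (8.91% of all genes for DMSO and not ATRA). Of 13 classic AP-1 target genes 3, 5, 3 and 3 had one, with CCL2 and CXCL8 called with POM and not DMSO (1.77% of all genes). The CXCL8 peak had a fold enrichment of 3.05, against a median of 9.49 over all POM peaks. CCL2, a monocyte chemokine, was called with ATRA+POM (4.65) and POM (8.53) only, and HMOX1, heme oxygenase, in every list but ATRA+POM. Called with POM and not ATRA+POM were 2 of the 13 (6.76% of all genes), and with ATRA and not ATRA+POM 1 (2.52%).

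The genes most like BATF2 in their number of peaks and their strongest fold enrichment over the 4 lists were SLC14A2, NEU3 and IL17RA, at Euclidean distances of 0.920, 1.04 and 1.12 over 8 values as log2(value + 1). SLC14A2 had 10, 7, 3 and 3 locus peaks with ATRA+POM, POM, ATRA and DMSO. Those most like FOSB, the member with the largest deficit with ATRA+POM relative to DMSO, were SEC31A, MYCBP2 and ATG3, at 0.607, 0.683 and 0.763. SEC31A had 4, 8, 7 and 7 peaks in the same lists. The 4 fold values behind each likeness are those of the strongest peak in the window, which lies at the ARL2 start for BATF2 and over TRU-TCA1-1 for FOSB, so they are values of neighbours.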

How the data were processed

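OPM-2 chromatin was immunoprecipitated after 72 h of treatment, with 1 ChIP and 1 input library per treatment. The 4 peak lists used were called per ChIP library and none pools libraries. Per the submitters' processing notes the coordinates are of hg38. Which aligner and peak caller made the lists is not given in the sources used here. For every peak the authors deposited a score (not used, 10 times its −log10 p without decimals), a fold enrichment, which is a ratio to the library's own background, and a −log10 p and −log10 q by the authors. The inputs entered only through these values.

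Peaks on chromosomes 1 to 22 and X were kept. Summit reads were recovered from fold and p under a Poisson model with 1 added to reads and background, and came out whole within 0.02 for 100.0%, 99.998%, 100.0% and 100.0% of ATRA+POM, POM, ATRA and DMSO peaks. Relative depth compares the lowest background value that recurred (20 times or more), per base of the smallest peak width, between lists. Both are inferences. Peaks sharing at least 1 bp were merged into regions. Gene bodies, start sites and the 300-base promoters are from RefSeq (GRCh38.p14), with 8 of the 10 members having a listed start. Shares carry exact (Clopper-Pearson) 95% intervals.

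All 10 members are named always, single regions when they are the strongest of a gene or called in some lists only, and up to 2 genes of a related list per comparison. The members and lists were chosen with earlier results of these data known. Merging, overlap and read recovery were tested on simulated data. The alternatives were windows of 5 kb, the top 50% of every list, lists cut to 36742 peaks, a fold enrichment of at least 10, peaks within 500 bp merged, sharing at 50% cover, start windows of 3000 bp and, for sets of lists, no ATRA list. Leaving out regions at other genes' starts and counting merged regions in place of peaks were added after seeing the data. Software was pandas 2.3.3, scipy 1.17.1, matplotlib 3.10.9, numpy 2.4.6 and Python 3.11.15.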

Additional observations from a re-analysis of the deposited data

Results flagged for a closer look

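FOSL2 was the one locus of the 10 where the difference in peak number with 1 compound had opposite signs with and without the other compound. The FOSL2 difference was −1 for POM minus DMSO and 1 for ATRA+POM minus ATRA, and likewise −1 for ATRA minus DMSO and 1 for ATRA+POM minus POM. The DMSO list splits the region from 28390651 to 28392128 into 2 peaks where POM has 1. Counted as merged regions the 4 differences were 0, 1, −1 and 0, with no opposite signs. With an equal number of peaks per list FOSL2 had 2, 3, 3 and 3 peaks with ATRA+POM, POM, ATRA and DMSO, and the opposite signs were lost there too. Each value rests on 1 library per treatment, and whether the differences differ was not tested.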

How the results depend on the processing

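No paired analysis was possible because each treatment had 1 ChIP library. Of 86 alternative values of the shares and start-peak counts, 71 stayed within the interval of the reported share or within 1.5 times the reported count. Of 244 alternative values of locus peak counts, median log2 ratios and counts by set of lists, 157 stayed within their limits, 85 moved past them and 2 changed sign. The limit was 1.5 times for a count and a set absolute change for a median log2 ratio. Most of those that moved came from the stronger 50% (30) and a fold enrichment of at least 10 (25). The shares over all regions and genes were not computed in any alternative setting. With the stronger 50% of each list, regions called in the first list only came to 6.67% for POM over DMSO, 3.45% for ATRA+POM over DMSO, 0% for ATRA+POM over POM and 7.69% for ATRA+POM over ATRA. In that setting 65.5% were called with DMSO only against ATRA+POM, and 4 members had a start peak with ATRA+POM. With a fold enrichment of at least 10, the ATRA+POM-only shares were 3.57% over DMSO, 0% over POM and 8.33% over ATRA. The DMSO-only and POM-only shares against ATRA+POM were then both 67.9%, and 4 members had a start peak with ATRA+POM. With sharing at 50% cover, a region counted for a list when under 50% of that list's peak bases were covered by the other. This held even where both lists had a peak, so narrower peaks could move it, and the same region could count on both sides. Such regions came to 66.7% for DMSO against ATRA+POM, 68.9% for DMSO against ATRA and 60% for POM against ATRA+POM. The median log2 ratio of POM over DMSO changed sign, to 0.0101 with the stronger 50% and 0.0386 with peaks within 500 bp merged. The causes of these shifts were not tested. Fewer peaks entered by construction with the stronger 50% and with a fold enrichment of at least 10. Merging within 500 bp and sharing at 50% cover used every peak. An equal number of peaks, windows of 5 kb, start windows of 3000 bp and leaving out other genes' starts moved no share or start-peak count past these limits. With start windows of 3000 bp, 9, 9, 7 and 8 members had a start peak with ATRA+POM, POM, ATRA and DMSO. FOSB then had one in every list, so its missing start peaks with ATRA+POM and ATRA hold for the 1000 bp window only. Leaving out the ATRA list leaves the pairs of the other lists as they are by construction and was tried for the sets of lists only, where it moved neither count. The depth of the ATRA list, 0.133 of that of DMSO, limits what its missing calls show. The 5 BATF2 regions were also not called with DMSO, the deepest list, and the part of depth in missing calls was not tested.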
